A study of Homo sapiens with 16 samples.

Results

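Expression was measured for CCN1, CCN2, SRF, VCL, FHL2, ANKRD1, TAGLN, TPM1, MYL9 and AMOTL2, which encode the CCN proteins, serum response factor, and commonly used targets of serum response factor or of the coactivator YAP. The genes were read through every probe set that the array annotation pairs with 1 of them and with no other gene. They made up 10 of 18132 genes and 35 of 49293 probe sets on the array. CYR61 and CTGF are older symbols of CCN1 and CCN2.

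The samples were 16 arrays of HEK293, a human embryonic kidney line. In every group the cells had been transfected for 24 h with 500 ng per well of a vector expressing MR, the mineralocorticoid receptor encoded by NR3C2. They were then exposed for 4 h to DOC plus PMA, to PMA, to DOC or to vehicle, with 4 biological replicates each. DOC is deoxycorticosterone acetate, an MR agonist steroid, used at 100 nM, and PMA is the phorbol ester phorbol 12-myristate 13-acetate, an activator of protein kinase C, used at 10 nM. DOC plus PMA held both at these concentrations. Cells lacking the vector were not analysed here, so whether a DOC response ran through the transfected MR or through another steroid receptor cannot be told apart. The labels do not say whether cells were sorted for transfection, and in these bulk samples fewer responding cells and less RNA per cell cannot be told apart.

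Serum response factor (SRF) binds CArG boxes together with ternary complex factors, which are switched on by ERK signalling, or with the MRTF coactivators, which are released when monomeric actin is taken up into filaments. The first partnership is best known for immediate early genes such as FOS, and the second for cytoskeletal genes such as VCL and TAGLN. YAP and TAZ are held in the cytoplasm when the Hippo kinases LATS1 and LATS2 phosphorylate them, and otherwise drive genes through TEAD factors, of which CCN1, CCN2 and ANKRD1 are widely used readouts. Several genes, CCN1 and CCN2 among them, are known to respond to both systems.

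The proximal promoters show which of these factors' letters lie near the start sites. The sequences are those of RefSeq on GRCh38.p14, covering the 250 bases before an annotated start. Of the 10 genes, 7 had an entry, with 12 start sites in all, and CCN1, TAGLN and MYL9 are named only. On both strands, 3 motifs were searched, namely the CArG box, the TEAD motif GGAATG and the AP-1 motif TGANTCA, none of which overlapped another in these windows. The CArG box was found in 1.16% of all 35116 windows, GGAATG in 11.9% and TGANTCA in 6.57%. The windows of SRF and of the genes with an entry and the largest rises after PMA are shown 5′ to 3′ in lower case, with motif matches in capitals. SRF holds a pair of CArG boxes, 30 to 21 and 10 to 1 bases before the start (start site 1, chr6:43171019-43171268, plus strand), and 2 or more CArG boxes occurred in 0.0313% of all windows. FHL2 holds a CArG box 59 to 50 bases before the start (start site 1, chr2:105399052-105399301, minus strand). CCN2 holds GGAATG beginning 169, 104 and 95 bases before the start (chr6:131951373-131951622, minus strand), and 3 or more occurred in 0.0826% of all windows. ANKRD1 holds GGAATG beginning 220 and 128 bases before the start and an AP-1 match beginning 195 bases before it (chr10:90921088-90921337, minus strand). AMOTL2 holds the reverse complement of GGAATG beginning 69 bases before the start (start site 1, chr3:134374448-134374697, minus strand).
SRF: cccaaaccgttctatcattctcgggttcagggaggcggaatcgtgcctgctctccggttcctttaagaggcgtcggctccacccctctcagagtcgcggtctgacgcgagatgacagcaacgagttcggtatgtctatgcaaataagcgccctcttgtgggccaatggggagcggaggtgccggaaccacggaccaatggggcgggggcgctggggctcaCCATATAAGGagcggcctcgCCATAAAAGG
FHL2: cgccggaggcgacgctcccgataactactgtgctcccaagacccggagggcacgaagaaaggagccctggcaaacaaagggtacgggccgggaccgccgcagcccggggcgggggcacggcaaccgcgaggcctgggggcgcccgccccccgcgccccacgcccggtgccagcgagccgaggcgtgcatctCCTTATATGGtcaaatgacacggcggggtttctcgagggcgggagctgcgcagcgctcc
CCN2: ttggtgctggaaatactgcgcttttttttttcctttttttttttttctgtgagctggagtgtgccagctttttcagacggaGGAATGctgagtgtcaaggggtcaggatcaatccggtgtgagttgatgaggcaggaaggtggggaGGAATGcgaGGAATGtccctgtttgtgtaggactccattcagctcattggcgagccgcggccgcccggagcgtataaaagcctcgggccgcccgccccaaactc
ANKRD1: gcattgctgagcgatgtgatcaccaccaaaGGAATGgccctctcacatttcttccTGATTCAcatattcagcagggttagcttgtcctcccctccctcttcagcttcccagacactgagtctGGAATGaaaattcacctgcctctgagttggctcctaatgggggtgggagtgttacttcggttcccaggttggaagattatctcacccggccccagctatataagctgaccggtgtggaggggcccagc
AMOTL2: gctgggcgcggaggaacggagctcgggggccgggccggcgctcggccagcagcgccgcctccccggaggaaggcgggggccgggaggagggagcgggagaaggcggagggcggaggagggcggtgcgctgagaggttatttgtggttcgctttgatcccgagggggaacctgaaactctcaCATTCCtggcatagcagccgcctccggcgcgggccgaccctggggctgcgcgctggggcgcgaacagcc

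Of the other windows, that of VCL holds GGAATG beginning 171 bases before the start, and the second FHL2 start site holds it beginning 27 bases before. The windows of both remaining FHL2 start sites overlap and share a CArG box. The TPM1 window and the second start sites of SRF and AMOTL2 hold none of the motifs searched. In all, 2 of the 7 genes held a CArG box in any window, against 1.44% of 27305 genes with an entry, 5 of 7 held GGAATG, against 14.3%, and 1 of 7 held TGANTCA, against 8.06%. A match of letters is a description and does not show that a factor binds there.

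The values were log2 RMA signals, in which a difference of 1 is a doubling and signals of different probe sets are not comparable with each other. Array medians lay between 4.91 and 4.96. Testing required a signal no lower than the array's 40th percentile in 4 or more arrays, and 27 of the 35 probe sets, covering all 10 genes, did so. No gene passed through the PMA arrays alone, although 3 of the 6 TAGLN probe sets did. Arrays of the same group correlated at 0.991 to 0.997 over 12495 genes. In 3 arrays the deviations from the group mean ran together over all genes, with correlations of 0.425 to 0.554, namely replicate 2 of DOC plus PMA, replicate 2 of PMA and replicate 1 of DOC, and counts of calls are also given without them. These were not the only ones. Replicate 3 of DOC correlated at 0.437 with replicate 3 of DOC plus PMA. Replicate 3 of PMA correlated at 0.367 with each of these 2 arrays. No fit left the replicate 3 arrays out together. Of 6 genes known in HEK293, 5 lay above every array's median, the exception being PAX2 at 4.37 to 5.23. Of the markers of other cell types, 0 of 4 leukocyte, 0 of 4 endothelial and 0 of 7 fibroblast and smooth muscle genes did so. NR3C2 averaged 7.02 in DOC plus PMA, 7.21 in PMA, 7.38 in DOC and 7.43 in vehicle, and whether its probe set detects the plasmid's transcript was not tested. Steroid response was seen in SGK1, TSC22D3, PDK4 and FKBP5, induced by corticosteroids in many cells, which passed as higher in DOC than in vehicle by 0.93, 0.63, 1.92 and 0.58 on the log2 scale (limma, adjusted p under 0.05 for each).

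The comparison of PMA with vehicle asks what the phorbol ester did to these genes without added steroid. The CCN genes rose most, CCN2 13.2-fold and CCN1 7.04-fold, followed by ANKRD1, FHL2 and AMOTL2 with 3.5-fold, 2.57-fold and 2.21-fold. VCL, TAGLN and SRF itself rose less than 2-fold, TPM1 fell, and MYL9 did not pass. In all, 8 of the 10 genes passed as higher and 1 as lower at a limma adjusted p under 0.05, and of all 12495 genes tested 17.7% passed as higher and 29.3% as lower. The median log2 change of the 10 genes was 0.96, and that of all genes was -0.04.

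SRF, the transcription factor itself, gave log2 signals of 8.32, 8.46, 8.41 and 8.37 in the PMA arrays, against 8.04, 7.85, 8.01 and 8.09 in the vehicle arrays. The lowest PMA array lay above the highest vehicle array, by a small margin. The log2 change was 0.39 ± 0.07 (SE; 95% interval 0.25 to 0.53), a 1.31-fold rise (limma adjusted p = 9.34e-05).

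CCN2, also known as connective tissue growth factor, is a secreted matricellular protein that acts in matrix deposition. It gave 12.10, 12.18, 11.93 and 11.88 with PMA, against 8.85, 7.93, 8.32 and 8.10 with vehicle. The groups were far apart, and the vehicle arrays were spread over 0.916 log2 units, the PMA arrays over 0.300. The change was 3.72 ± 0.20 (95% interval 3.30 to 4.14, limma adjusted p = 7.89e-11), which placed CCN2 at the 99.83rd percentile of all genes ranked by change.

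CCN1, the related integrin ligand known as CYR61, gave 10.23, 10.09, 10.14 and 10.21 with PMA, against 7.62, 7.21, 7.31 and 7.26 with vehicle. No array came near the other group, and the change was 2.82 ± 0.09 (95% interval 2.64 to 3.00, limma adjusted p = 1.82e-14). The other members of the family, CCN3 to CCN6, were mostly too dim to test. Only CCN3 of these 4 was tested, and it did not pass, with -0.30 ± 0.12 (limma adjusted p = 0.055).

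ANKRD1, an ankyrin repeat protein of the nucleus and the sarcomere, gave 7.33, 7.16, 7.22 and 7.33 with PMA, against 5.91, 4.65, 5.64 and 5.61 with vehicle. Vehicle replicate 2 stood below the other vehicle arrays, and all 4 lay below the PMA arrays. The change was 1.81 ± 0.21 (95% interval 1.36 to 2.25, limma adjusted p = 1.72e-06), and without vehicle replicate 2 it was 1.54 (limma adjusted p = 8.44e-07). AMOTL2, an angiomotin-like junction protein that binds YAP and is itself a YAP target, gave 6.79, 6.41, 6.77 and 6.43 with PMA, against 5.59, 5.34, 5.36 and 5.52 with vehicle. The PMA arrays fell into a higher and a lower pair, both above vehicle, and the change was 1.15 ± 0.11 (limma adjusted p = 1.85e-07).

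FHL2, a LIM-only protein that binds SRF and integrins, had the smallest SE among the genes that rose. Its signals were 9.04, 8.93, 8.90 and 8.99 with PMA, against 7.56, 7.59, 7.63 and 7.64 with vehicle. The groups did not overlap and the change was 1.36 ± 0.06 (95% interval 1.24 to 1.49, limma adjusted p = 3.16e-12). VCL encodes vinculin, which ties adhesion sites to actin filaments. It gave 11.46, 11.53, 11.31 and 11.34 with PMA, against 10.63, 10.75, 10.55 and 10.61 with vehicle. Again no arrays overlapped, with a change of 0.78 ± 0.07 (limma adjusted p = 1.16e-07).

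The genes of the contractile apparatus did not move together. TAGLN, the actin-bundling protein transgelin, gave 5.46, 6.34, 5.33 and 5.83 with PMA, against 5.18, 5.06, 5.03 and 4.99 with vehicle. Every PMA array was higher, but they were spread over 1.01 log2 units, and PMA replicate 2, which deviated in many genes, was the highest. The change was 0.67 ± 0.16 (95% interval 0.33 to 1.01, limma adjusted p = 0.00229), and without PMA replicate 2 it was 0.47 (limma adjusted p = 0.00452). TPM1, a tropomyosin that coats actin filaments, gave 8.35, 8.28, 8.17 and 8.46 with PMA, against 8.72, 8.84, 8.64 and 8.63 with vehicle. All PMA arrays were lower, and TPM1 fell by 0.39 ± 0.07 on the log2 scale (95% interval -0.55 to -0.24, limma adjusted p = 0.000259). MYL9, a regulatory light chain of smooth muscle and nonmuscle myosin, gave 5.92, 6.19, 6.01 and 5.45 with PMA, against 5.73, 5.58, 5.99 and 5.77 with vehicle. These overlapped, with a difference of 0.13 ± 0.12 (95% interval -0.13 to 0.38, limma adjusted p = 0.413), and among 25 alternatives MYL9 passed in 1, the fit without PMA replicate 4 (0.27, limma adjusted p = 0.0242).

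**Figure D1:**
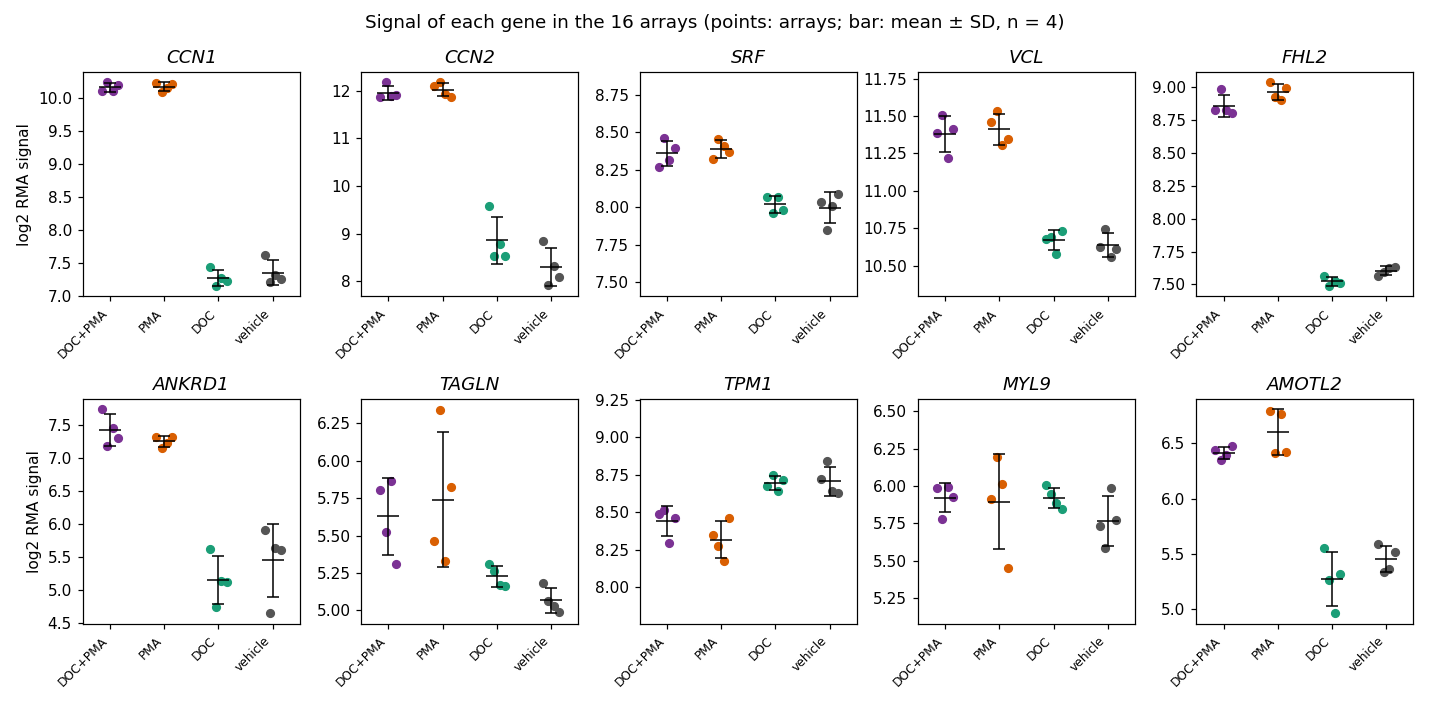
Log2 RMA signal of the 10 genes, each panel with its own vertical axis, in DOC plus PMA, PMA, DOC and vehicle arrays; points are arrays and bars the mean ± SD of 4. For 8 genes both PMA groups lie wholly above vehicle, for TPM1 wholly below, and MYL9 overlaps in all groups. How many of all genes separate in this way was not counted.

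Without the 3 deviating arrays the same comparison again called 9 of the 10 genes. Array scaling mattered for the background, since 37.6% of all genes called for PMA were higher with the deposited scaling, 50.2% after cyclic loess and 55.4% after a common median, and none of the 10 calls changed. Some leukocyte and endothelial markers moved with PMA too: CD68 and CORO1A passed with 0.43 and 0.40, and TIE1, PECAM1 and ESAM with 0.47, 0.30 and 0.23. The others of these lists on the array, PTPRC, CD3E and CDH5, were too dim to test. They averaged 2.27, 2.94 and 3.00 in PMA, against 2.18, 2.97 and 2.97 in vehicle. Of 24 alternatives, 7 lost the call of CD68, 9 that of ESAM and 1 that of CORO1A, and 0 that of TIE1 or PECAM1. With the mean of a gene's probe sets, CD68 gave 0.22 and CORO1A 0.15. Their lists stayed dim, at mean log2 signals of 3.72 to 3.82 in PMA against 3.48 to 3.68 in vehicle for the 4 leukocyte genes and 4.07 to 4.24 against 3.76 to 4.00 for the 4 endothelial genes. Of the 4 tested genes of the fibroblast and smooth muscle list 0 passed in limma. An unadjusted limma p under 0.05 was found for 3 of them and for 6641 of all 12495 genes. This list averaged 3.72 to 3.81 in PMA against 3.70 to 3.76 in vehicle. The part of these markers in the results was not tested.

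Probe sets of the same gene were tested separately, over 30613 probe sets, of which 16.5% passed as higher and 24.5% as lower for PMA against vehicle. Of the 27 probe sets tested for the 10 genes, 3 of TAGLN passed the filter through PMA arrays alone and are left out of the counts, and of the other 24, 16 passed as higher and 3 as lower. The 3 CCN2 probe sets gave 4.32, 4.20 and 3.72, and the gene is represented by the brightest of them, which gave the smallest change. The pair for CCN1 gave 2.82 and 2.63, and the 3 for FHL2 gave 1.50, 1.42 and 1.36. For VCL, 2 of 4 probe sets were bright enough, with 1.06 and 0.78. The 3 for TAGLN that were also bright enough without PMA gave 0.67, 0.62 and 0.51, and each passed as higher. Some TAGLN probe sets share probes with other sequences by their array design suffix, so its values are less certain. The probe sets that represent CCN2, SRF, VCL, TPM1 and MYL9 carry such a suffix too, and the same limit holds for them. Of 9 for TPM1, 7 were tested, all with negative changes between -0.39 and -0.11, of which 3 passed as lower. SRF, ANKRD1, MYL9 and AMOTL2 had 1 tested probe set each.

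**Figure D2:**
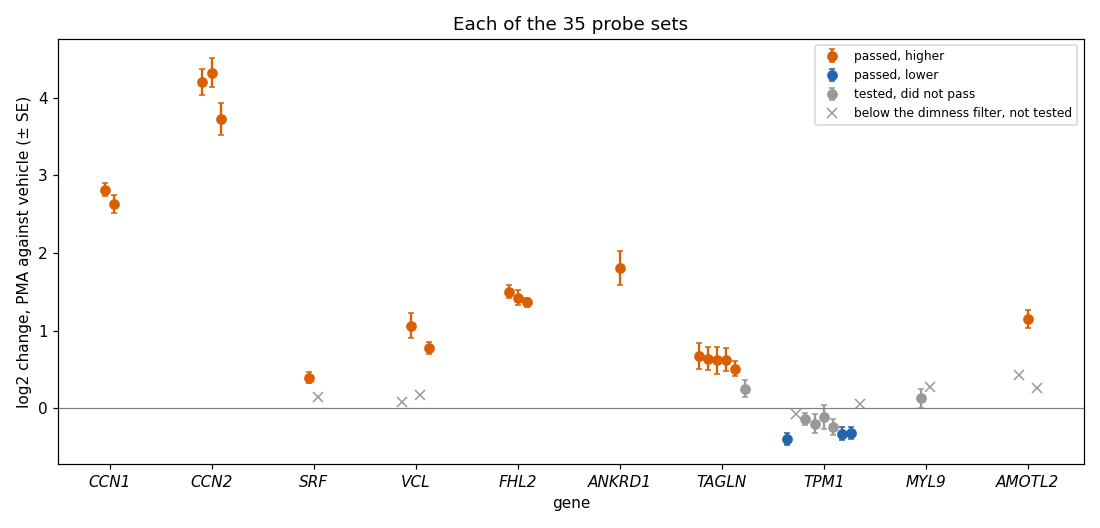
Log2 change (± SE) for PMA against vehicle in each of the 35 probe sets of the 10 genes; crosses are probe sets too dim to be tested. All tested probe sets of CCN1, CCN2, FHL2 and VCL rose, and all 7 of TPM1 lie below 0.

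With DOC present, the PMA response was measured by DOC plus PMA against DOC. CCN2 rose 8.57-fold, CCN1 7.37-fold, ANKRD1 4.81-fold, FHL2 2.53-fold and AMOTL2 2.20-fold. VCL and SRF rose by 0.71 ± 0.07 and 0.34 ± 0.07 on the log2 scale and TPM1 fell by 0.26 ± 0.07. In all, 7 of 10 genes passed as higher and 1 as lower (limma), while 15.7% and 26.9% of all genes did, and the median of the 10 was 0.92 against -0.05 for all genes. The groups compared here share no array with those of PMA against vehicle. Both comparisons take the SE from all 16 arrays, so their p-values are not independent.

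CCN2 gave 11.86, 12.18, 11.89 and 11.91 in DOC plus PMA, against 9.58, 8.54, 8.79 and 8.54 in DOC. DOC replicate 1 stood above the other DOC arrays and still well below the PMA-treated ones. The change was 3.10 ± 0.20 (95% interval 2.68 to 3.52, limma adjusted p = 9.68e-10). CCN1 gave 10.09, 10.24, 10.10 and 10.19, against 7.44, 7.15, 7.28 and 7.23 in DOC, a change of 2.88 ± 0.09 (limma adjusted p = 1.29e-14). ANKRD1 gave 7.74, 7.18, 7.46 and 7.31 in DOC plus PMA, against 5.63, 4.74, 5.14 and 5.12 in DOC, a change of 2.27 ± 0.21 (limma adjusted p = 1.23e-07). Replicate 1 was the highest array of ANKRD1 in DOC plus PMA, in DOC and in vehicle, and of CCN1 and CCN2 in DOC and in vehicle.

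SRF gave 8.27, 8.46, 8.31 and 8.40 in DOC plus PMA, against 8.07, 7.96, 8.07 and 7.98 in DOC (limma adjusted p = 0.000407). VCL gave 11.38, 11.50, 11.22 and 11.42, against 10.68, 10.69, 10.58 and 10.73 in DOC (limma adjusted p = 4.04e-07). For both, all arrays with PMA lay above those without. FHL2 gave 8.83, 8.99, 8.83 and 8.81, against 7.57, 7.49, 7.53 and 7.51 in DOC (limma adjusted p = 4.16e-12). AMOTL2 gave 6.44, 6.35, 6.39 and 6.48, against 5.56, 5.27, 4.96 and 5.32 in DOC (limma adjusted p = 2.33e-07). AMOTL2 was more even in DOC plus PMA, with a range of 0.132, than in PMA alone, with 0.377.

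TAGLN gave 5.81, 5.53, 5.87 and 5.31 in DOC plus PMA, against 5.31, 5.26, 5.17 and 5.17 in DOC. The 2 groups touched without overlapping, and the change of 0.40 ± 0.16 (95% interval 0.06 to 0.74) missed the threshold (limma adjusted p = 0.0545). It passed under 9 of 24 alternatives, and the adjusted p ran from 0.000219 to 0.155, the lowest from a mean over probe sets that includes the 3 kept through PMA arrays alone. Of the other 3 probe sets, 1 passed as higher, with 0.59, where 15.6% of all probe sets did, and the rest gave 0.40 and 0.02. TPM1 gave 8.49, 8.51, 8.29 and 8.46 in DOC plus PMA, against 8.67, 8.75, 8.64 and 8.71 in DOC (-0.26, limma adjusted p = 0.00889). All 4 were lower, but the call was lost with a common median (-0.18, adjusted p = 0.0632) and with the mean of its probe sets (-0.15, adjusted p = 0.0973). MYL9 gave 5.99, 5.78, 5.99 and 5.93, against 6.0, 5.94, 5.89 and 5.85 in DOC, with a difference of 0.00 ± 0.12 (95% interval -0.25 to 0.25, limma adjusted p = 0.999).

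Against vehicle, DOC plus PMA gave 8 of 10 genes higher and 1 lower (limma), with 17.5% and 26.3% of all genes, and this comparison shares its vehicle arrays with that of PMA. CCN2 was 12.6-fold and CCN1 6.99-fold higher, ANKRD1 3.92-fold, FHL2 2.39-fold and AMOTL2 1.94-fold. VCL was higher by 0.75, TAGLN by 0.56 and SRF by 0.36 on the log2 scale, and TPM1 was lower, at -0.27. MYL9 did not pass (0.15, limma adjusted p = 0.32).

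DOC alone moved none of the 10 genes past the threshold. In DOC against vehicle 0 of 10 passed in limma, and 0.12% of all genes passed, each of them higher. An unadjusted limma p under 0.05 was found for 1 of the 10, CCN2, and for 386 of all 12495 genes. The changes ran from -0.29 for ANKRD1 to 0.56 for CCN2, and all 10 genes overlapped between the groups. The share of all genes that overlapped was not counted. CCN2 was the gene with an unadjusted p under 0.05, at 0.56 ± 0.20 (95% interval 0.14 to 0.98, limma adjusted p = 0.999). Its DOC arrays held 9.58, 8.54, 8.79 and 8.54, against 8.85, 7.93, 8.32 and 8.10 in vehicle. Leaving out single arrays gave 0.32 to 0.74, the lowest without DOC replicate 1, which deviated in many genes, and the highest without vehicle replicate 1, and CCN2 passed under 0 of 25 alternatives (limma adjusted p from 0.4 to 1). The other CCN2 probe sets gave 0.52 and 0.32 over all arrays.

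For the remaining genes the intervals bound the size of a DOC effect. The 95% interval ran from -0.26 to 0.10 for CCN1, from -0.12 to 0.16 for SRF, from -0.12 to 0.19 for VCL, from -0.20 to 0.04 for FHL2 and from -0.17 to 0.14 for TPM1. It was wider for ANKRD1, from -0.74 to 0.15, for AMOTL2, from -0.41 to 0.06, for TAGLN, from -0.18 to 0.50, and for MYL9, from -0.10 to 0.41.

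Adding DOC to PMA also left the 10 genes within the threshold. In DOC plus PMA against PMA 0 of 10 passed in limma, and 0.384% of all genes passed. An unadjusted limma p under 0.05 was found for 0 of the 10 and for 544 of all 12495 genes. CCN1 differed by -0.01 (95% interval -0.19 to 0.17) and CCN2 by -0.06 (95% interval -0.48 to 0.36). The CCN2 interval also carries its spread without PMA, with SDs of 0.49 in DOC and 0.40 in vehicle. Its SDs were 0.15 in DOC plus PMA and 0.14 in PMA. SRF and VCL each differed by -0.03 (95% intervals -0.17 to 0.11 and -0.18 to 0.12). FHL2 differed by -0.10 (95% interval -0.23 to 0.02), AMOTL2 by -0.19 (-0.42 to 0.05), TAGLN by -0.11 (-0.45 to 0.23) and MYL9 by 0.03 (-0.22 to 0.28). ANKRD1 was the highest at 0.17 (-0.28 to 0.61), ahead of TPM1 at 0.12 (-0.03 to 0.28). The limma adjusted p was 1 for each of the 10.

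The interaction is the change on adding DOC to PMA minus the change with DOC alone. It passed in limma for 0 of 10 genes and for 0.088% of all genes. An unadjusted limma p under 0.05 was found for 1 of the 10, CCN2, and for 370 of all 12495 genes. CCN2, the gene with the unadjusted p under 0.05, had -0.62 ± 0.28 (limma adjusted p = 1) and ANKRD1 had 0.46 ± 0.30, in the opposite direction (adjusted p = 1). For CCN2 the term was -0.38 without DOC replicate 1 and -0.80 without vehicle replicate 1, and its other probe sets gave -0.45 and -0.20. The mean of both DOC effects also passed in limma for 0 of 10 genes, and for 0.432% of all genes. An unadjusted limma p under 0.05 was found for 574 of all 12495 genes and for 2 of the 10. Those 2 were FHL2 at -0.09 ± 0.04 and AMOTL2 at -0.18 ± 0.08, with limma adjusted p of 0.994 and 0.971. Single probe sets were again counted without the 3 of TAGLN kept through PMA arrays alone. In DOC against vehicle 0 of 24 passed in limma, 2 with an unadjusted p under 0.05. In DOC plus PMA against PMA 0 of 24 passed, 1 with an unadjusted p under 0.05. For the interaction 0 of 24 passed, 2 with an unadjusted p under 0.05. Of all probe sets, 0.0719%, 0.229% and 0.0294% passed in this order. How many of all probe sets had an unadjusted p under 0.05 was not counted.

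**Figure D3:**
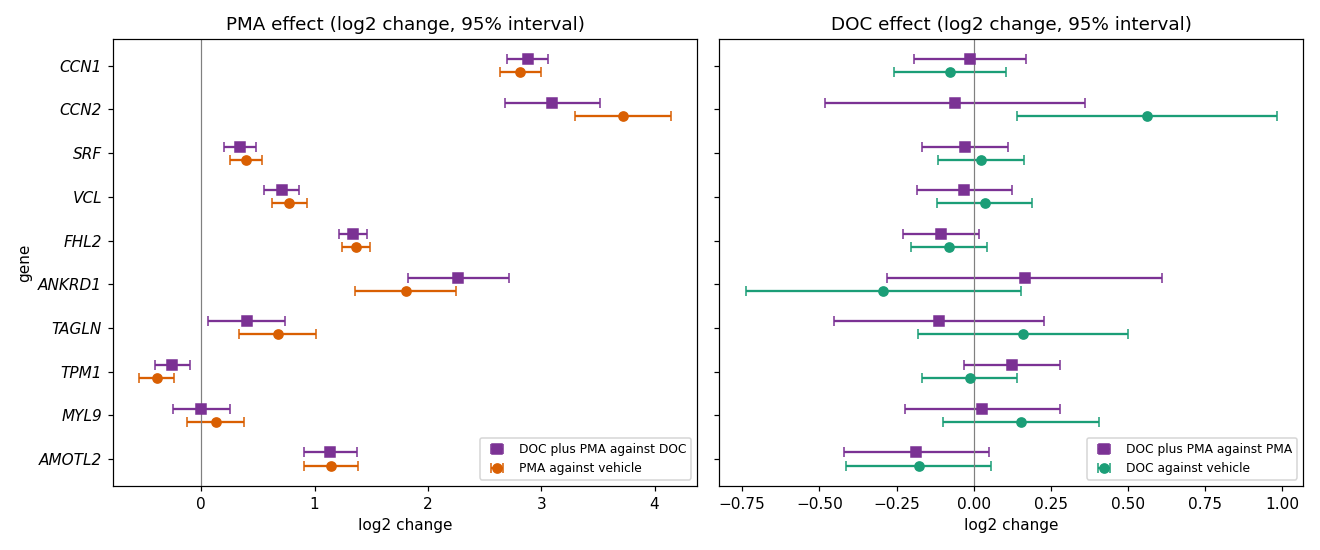
Log2 changes with 95% intervals for the 10 genes, on the left the PMA effect with DOC (squares) and without (circles), on the right the DOC effect with PMA (squares) and without (circles), each on its own axis. PMA intervals lie clear of 0 for 9 genes in both settings, and DOC intervals include 0 for all but CCN2 without PMA.

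Other genes of the same pathways were read from lists chosen with earlier results of these data known. Among the 27 tested components of SRF and YAP signalling, PMA against vehicle gave 9 higher and 4 lower, with a median of 0.13, and 8 and 4 without the 3 deviating arrays. Of all genes 17.7% passed as higher and 29.3% as lower. The Hippo kinase LATS2, itself a YAP target, rose by 1.23 ± 0.12, and the ternary complex factor ELK4 by 1.00 ± 0.10. ELK4 was dim without PMA, at 3.73 in vehicle and 3.74 in DOC. It could pass the filter only through PMA-treated arrays, as 3 TAGLN probe sets did, so its call was not independent of the filter. AMOT, a YAP-binding angiomotin related to AMOTL2, fell by 0.94 ± 0.09, so that AMOT and AMOTL2 changed in opposite directions. Among the coactivators WWTR1, which encodes TAZ, rose by 0.52 ± 0.08 (limma adjusted p = 4.93e-05) and MRTFB fell by 0.67, while YAP1, at -0.11, and MRTFA, at 0.16, did not pass. The Hippo components LATS1, MOB1A, MOB1B and STK3 rose by 0.67, 0.79, 0.30 and 0.36. The ternary complex factor ELK3 rose by 0.49 and the YAP partner TEAD4 by 0.33, while TEAD2 fell by 0.66 and the angiomotin AMOTL1 by 0.44. YAP1 and MRTFA each passed in another comparison of PMA-treated with untreated cells. In DOC plus PMA against DOC YAP1 passed as lower, at -0.35 (limma adjusted p = 0.0166), and MRTFA, at 0.16, did not pass. In DOC plus PMA against vehicle MRTFA passed as higher, at 0.22 (limma adjusted p = 0.0446), and YAP1, at -0.24, did not pass. Apart from LATS2, ELK4 and AMOT, the genes of this list were named after their values were seen.

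The target lists differed in how many members passed for PMA. Of the SRF immediate early targets, 11 of 11 passed as higher with a median of 2.55, led by the transcription factor EGR3 at 6.45, the cytoskeletal protein ARC at 6.11 and FOS at 5.65. EGR3 and FOS were below the array medians in vehicle, at 2.93 and 4.47, and EGR3 gave 3.45 when its probe sets were averaged. DOC alone changed EGR3 by -0.07, so EGR3 too could pass the filter only through PMA-treated arrays. Its call in the 11 of 11 and its value in the median of this list were thus not independent of the filter. Other genes of these lists were not checked for this. Of 25 other cytoskeletal targets of SRF and MRTF, 10 passed as higher and 1 as lower, with a median of 0.13. The adhesion protein ZYX rose by 0.99 ± 0.12, the tropomyosin TPM4 by 0.63 ± 0.10 and FHL3 by 0.40 ± 0.10. TPM4 thus rose while TPM1 fell. Of 13 other YAP and TAZ targets, 6 passed as higher and 1 as lower, with a median of 0.21. Tissue factor, F3, rose by 4.33 ± 0.15, the growth factor-binding protein IGFBP3 by 1.84 ± 0.10 and the secreted FJX1 by 1.25 ± 0.08. Without the 3 deviating arrays the counts were 11 and 0, 10 and 1, and 7 and 2, in the order of these lists. The median over all genes was -0.04.

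**Figure D4:**
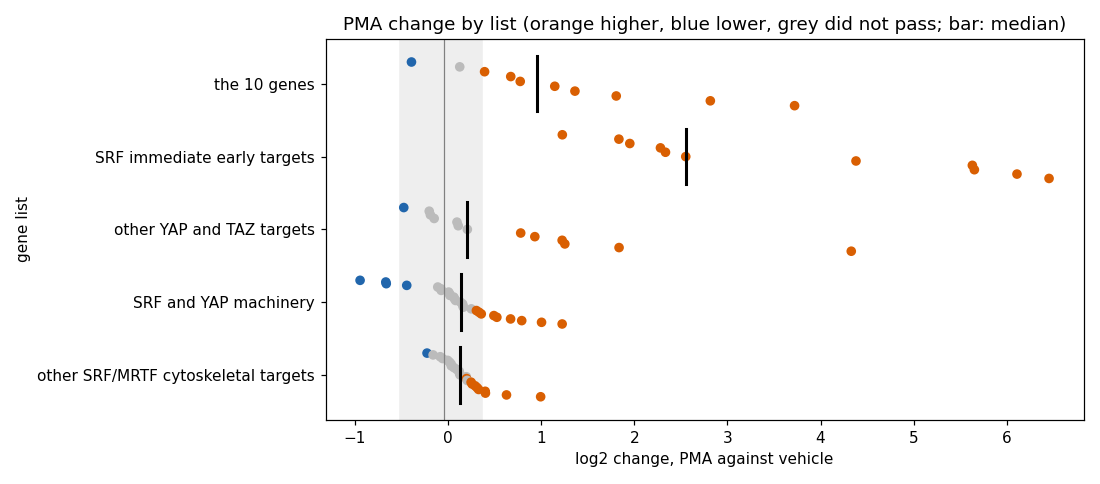
Log2 change for PMA against vehicle in the 10 genes and in 4 lists of related genes; each point is a gene, black bars are list medians, and the grey band spans the 10th to 90th percentiles of all genes, -0.52 to 0.37. Immediate early targets all lie above the band, while most cytoskeletal targets lie within it. EGR3 and ELK4 are among the points, although they could be tested only through PMA-treated arrays.

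In DOC plus PMA against DOC the same lists gave 11 higher and 5 lower of 27 pathway components, 11 of 11 immediate early targets higher, 10 higher of 25 cytoskeletal targets, and 7 higher and 3 lower of 13 YAP and TAZ targets, where 15.7% of all genes passed as higher and 26.9% as lower. EGR3 and ELK4, which could be tested only through PMA-treated arrays, are in these counts too. In the same comparison CCN3 passed as lower, at -0.52 ± 0.12 (limma adjusted p = 0.00195), opposite in direction to CCN1 and CCN2. With DOC alone, 0 genes of these lists passed against vehicle in limma. There 2 of 27, 2 of 11, 0 of 25 and 1 of 13 had an unadjusted p under 0.05, as did 386 of all 12495 genes. In DOC plus PMA against PMA only RHOB passed among the genes of these lists. It averaged 8.51 ± 0.17 in DOC plus PMA, 7.42 ± 0.06 in PMA, 7.71 ± 0.16 in DOC and 7.36 ± 0.08 in vehicle (SD, n = 4 each). The change on adding DOC to PMA was 1.08 ± 0.09 (limma adjusted p = 9.33e-07), and PMA against vehicle gave 0.06, which did not pass. With the mean of its probe sets the change on adding DOC to PMA was 0.36, still past the threshold (adjusted p = 0.00888). F3 was higher by 0.61 ± 0.15 in DOC plus PMA against PMA and by 0.61 ± 0.15 in DOC against vehicle, without passing in either (limma adjusted p = 0.104 and 0.261). Against PMA it passed under 7 of 26 alternatives, with adjusted p from 0.000262 to 0.394, among them the replicate block on the PMA and DOC plus PMA arrays alone (0.61, adjusted p = 0.0113). For the mean of both DOC effects 3 genes of these lists passed, RHOB at 0.72, F3 at 0.61 and the ternary complex factor ELK1 at 0.25 (limma adjusted p = 2.01e-06, 0.00588 and 0.036), ELK1 being named after its values were seen.

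The genes with the profile nearest to each of CCN1, CCN2 and SRF were found by the root mean square difference of log2 signals, centred on the vehicle mean, over the 16 arrays. For CCN1 they were CSRNP1, ZCCHC12 and EMP1, with differences of 0.119, 0.144 and 0.146. For CCN2 they were PHLDA1, ZFP36 and GADD45B, with 0.253, 0.339 and 0.344, and CCN1 was 24th in this order, with 0.730. PHLDA1 gave 3.83 for PMA against vehicle and 0.63 for DOC against vehicle, where CCN2 gave 3.72 and 0.56. For SRF they were RIOK3, MSL2 and ZNF281, with 0.0574, 0.0585 and 0.0604. ANKRD1 was the closest of the 10 genes to CCN1, 64th among all genes with 0.710.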

How the data were processed

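Total RNA (100 ng per sample) was labelled with biotin by 3' in vitro transcription, per the labels' protocols, and hybridised to 16 Affymetrix arrays. The deposited values are log2 signals. Per the submitters' processing notes they come from RMA and Affymetrix Expression Console, in versions not given in the sources used here. Because RMA gives every array the same distribution, a shift shared by most transcripts would be removed. The table held 0 columns of other samples, values ran from 1.21 to 13.8, and 0 pairs of arrays held identical values. The labels number the 4 arrays of a group as biological replicates without saying whether cultures were separate, so p-values measure the spread between these arrays, whose number limits the precision.

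Platform annotation paired 44988 probe sets with 1 gene, 1832 with several and 2473 with none, and 44961 of the single-gene ones matched a RefSeq gene. Of 30613 probe sets at or above the 40th percentile of their array in at least 4 arrays, each gene took its brightest by mean, which gave 12495 genes. Group means were fitted to all arrays with limma 3.58.1 under R 4.3.3 (lmFit, eBayes). Genes passed at a two-sided Benjamini-Hochberg adjusted p under 0.05 over all 12495, and probe sets over all 30613. The files name no genome build, so gene coordinates are given only for RefSeq promoter windows.

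The 10 genes, the related lists and the tests were chosen with earlier results of these data known. From each related list the 3 genes with the largest change past the threshold for PMA against vehicle are named, with any that passed for DOC against vehicle, DOC plus PMA against PMA or the interaction, and 3 nearest profiles for CCN1, CCN2 and SRF. The main fit paired no arrays, and replicate numbers entered only in alternatives with a replicate block. For such a block on PMA and DOC plus PMA arrays, the numbers were taken to mark pairs. This rested on the data alone, since deviations from the group means correlated at 0.157 to 0.549 in the 4 same-number pairs. In each other pair of groups at least 1 of 4 lay under 0.1, and DOC and vehicle, with 3 of 4 above it, were not taken as paired. Arrays with different numbers were not compared throughout, and PMA replicate 2 with DOC replicate 1 reached 0.554. These correlations therefore cannot show that replicate numbers mark pairs. Alternatives changed the filter, scaling, choice of probe set, replicate block, array weights, arrays in the fit and each single array.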

Additional observations from a re-analysis of the deposited data

Results flagged for a closer look

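Among 40 sets of 4 arrays (10 genes in 4 groups), 2 held an array far from the others, a gap that chance gives in about 1 in 20 sets. Both were DOC plus PMA replicate 2, which also deviated from its group in many other genes. CCN2 read 12.18 there, against 11.91 in the nearest array, a gap of 0.866 of the group's range. FHL2 read 8.99 there, against 8.83 in the nearest array, a gap of 0.884 of the range. Without this array and the other arrays that deviated with it, 9 of the 10 genes still passed for DOC plus PMA against vehicle.

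The DOC effect differed with and without PMA, by limma's interaction term, for 11 genes, 0 of them among the 10 and 2 of them in the related lists. RHOB had an interaction of 0.734 on the log2 scale (adjusted p = 0.0234), with a DOC effect of 1.08 with PMA and 0.35 without it. Its call was lost in 13 of 24 alternatives, and the adjusted p ran from 0.00053 to 0.999. The value was 0.17 when its probe sets were averaged (adjusted p = 0.999). PDK4, a pyruvate dehydrogenase kinase read here as a steroid-responsive control, had an interaction of 1.18 (adjusted p = 0.0381), with a DOC effect of 3.09 with PMA and 1.92 without it. Its call was lost in 13 of 24 alternatives, each of which left out a single array, with adjusted p from 0.000194 to 0.131. Leaving out a single array also accounts for 12 of the 13 losses for RHOB.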

How the results depend on the processing

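Under 25 alternatives per comparison (26 for DOC plus PMA against PMA, 24 for the interaction and the mean DOC effect), the number of the 10 genes that passed ran from 8 to 10 for PMA against vehicle, was 8 or 9 for DOC plus PMA against vehicle and against DOC, and was 0 for each comparison of DOC and for the interaction. The number of all 12495 genes that passed for PMA against vehicle changed with the scaling too. It was 2206 higher and 3663 lower in the main fit, 3010 and 2990 after cyclic loess, and 3418 and 2748 after a common median. For the other alternatives, the fit without the 3 deviating arrays among them, the share of all genes is not given here. Of 70 values of a gene in a comparison, 3 changed their call under any alternative and 0 changed direction while called. MYL9 passed for PMA against vehicle without PMA replicate 4 (0.27, adjusted p = 0.0242). TAGLN passed for DOC plus PMA against DOC under 9 alternatives, among them cyclic loess (0.49, adjusted p = 0.0147), the mean of its probe sets (0.49, adjusted p = 0.000219), which includes 3 kept through PMA arrays alone, and fits without PMA replicate 2 (0.40, adjusted p = 0.00837), PMA replicate 3 (0.40, adjusted p = 0.0334) or DOC plus PMA replicate 4 (0.51, adjusted p = 0.0237). With the 60th percentile filter TAGLN was too dim to test. TPM1 lost its call in the same comparison with a common median (-0.18) and with the mean of its probe sets (-0.15). With the replicate block, 9 of the 10 passed for PMA as well as for DOC plus PMA against vehicle, 8 for DOC plus PMA against DOC and 0 in the others, so the pairing changed no call among the 10. A block on the PMA and DOC plus PMA arrays alone, added after seeing the data, gave 0 for that pair. A fit without the 3 arrays that deviated together, also added after seeing the data, gave 9 for each comparison of PMA-treated with untreated cells and 0 in the others. Dim genes can understate their changes, and TAGLN, ANKRD1, AMOTL2 and MYL9 lay near the array medians without PMA.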

Other observations

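Among the cells without PMA, CCN2 and ANKRD1 varied between replicates more than with it. The CCN2 arrays of a group spanned 0.318 log2 units in DOC plus PMA and 0.300 in PMA, against 1.04 in DOC and 0.916 in vehicle. The ANKRD1 arrays spanned 0.557 in DOC plus PMA and 0.170 in PMA, against 0.891 in DOC and 1.26 in vehicle. TAGLN went the other way, with 0.552 in DOC plus PMA and 1.01 in PMA, against 0.144 in DOC and 0.189 in vehicle. These spreads are descriptions of 4 arrays each and were not tested.

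Genes known in HEK293 were not constant. The neurofilament NEFM rose by 2.51 with PMA against vehicle, and the keratins KRT8 and KRT18 by 0.79 and 0.77 (limma, adjusted p = 3.18e-10, 0.000126 and 1.32e-06). Of the 6 genes of this list 3 passed as higher and 1 as lower, where 17.7% and 29.3% of all genes did. The others of the list did not rise alike. The neurofilament NEFL averaged 9.67 in PMA against 10.12 in vehicle, PAX2 4.53 against 4.81 and VIM 12.79 against 12.69.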
